A study of Rattus norvegicus with 14 samples.

Results

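Mal, Pllp, Bcas1 and Ncmap encode proteins of the myelin membrane, and every transcription start site (TSS) listed for them was followed through 14 Tn5Prime libraries of rat Schwann cells and nerve. The 4 genes hold 12 of the 4993 TSSs in the table, with 3 for Mal, 5 for Pllp, 1 for Bcas1 and 3 for Ncmap, and are 4 of its 2993 gene symbols. They were taken by their symbols, and were put together with earlier results of these data in view, among them the difference between cAMP-treated and control cells and the levels in nerve. Those values therefore stand here as a description without a test. The libraries hold no time course of myelination, so that no value below says at which stage a gene is first transcribed.

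Tn5Prime captures the 5′ ends of transcripts, and a TSS is a cluster of read starts whose abundance is given in RPM, its reads scaled to the total reads of the library. The deposited TSSs lie near promoters marked by H3K4me3 and bound by SOX10, the transcription factor that Schwann cells need at every stage, according to ChIP-Seq of sciatic nerve. The groups were wild type sciatic nerve of independent adult rats aged 6 to 9 months (2 libraries), rat primary Schwann cells given vehicle (control, 3) or 250 µM CPT-cAMP for 3 days (3), the unmodified parental S16 rat Schwann cell line (2) and S16 clones edited at Sox10 with CRISPR/Cas9 (ΔSOX10, 4). CPT-cAMP is a cell-permeable cyclic AMP analogue used to drive cultured Schwann cells towards myelination, and both primary cell groups had been expanded with neuregulin and forskolin, which itself raises cyclic AMP. The 4 clones came from 2 guide RNAs and, like the parental libraries, from 1 immortalized line. Each library came from a separate RNA isolation, and the labels do not say that the cultures came from separate animals, so that p-values measure the spread between these libraries.

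Mal and plasmolipin (Pllp) are small proteolipids with 4 membrane spans of the MARVEL family, which reside in cholesterol-rich membrane and take part in sorting proteins and lipids to myelin. Bcas1 is a cytoplasmic protein associated with myelin and is used to mark oligodendrocytes that are starting to myelinate. Ncmap is a glycoprotein of peripheral myelin with a single membrane span, named for its place in noncompact myelin.

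The RefSeq promoters of these genes are printed because their main TSSs, abundant in nerve, all stayed at or under 2.52 RPM in control and ΔSOX10 cells. RefSeq (GRCr8) gave a promoter for 3 of the 4 genes, Mal, Pllp and Ncmap. The 250 bases before the start of Mal are chr3:135341424-135341673 (minus strand), those of Pllp chr19:10320830-10321079 (plus strand) and those of Ncmap chr5:152902415-152902664 (minus strand). Each is written 5′ to 3′ on the strand of the gene, with matches to a GC box (GGGCGG on either strand) in capitals:
Mal: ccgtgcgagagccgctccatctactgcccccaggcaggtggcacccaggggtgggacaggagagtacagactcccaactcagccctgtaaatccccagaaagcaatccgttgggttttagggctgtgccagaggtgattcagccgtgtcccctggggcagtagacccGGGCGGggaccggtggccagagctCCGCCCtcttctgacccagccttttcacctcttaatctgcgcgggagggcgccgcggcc
Pllp: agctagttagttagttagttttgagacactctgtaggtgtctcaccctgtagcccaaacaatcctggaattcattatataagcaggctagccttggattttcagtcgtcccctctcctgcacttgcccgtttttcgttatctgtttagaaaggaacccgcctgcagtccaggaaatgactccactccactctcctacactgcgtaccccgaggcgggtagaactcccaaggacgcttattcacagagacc
Ncmap: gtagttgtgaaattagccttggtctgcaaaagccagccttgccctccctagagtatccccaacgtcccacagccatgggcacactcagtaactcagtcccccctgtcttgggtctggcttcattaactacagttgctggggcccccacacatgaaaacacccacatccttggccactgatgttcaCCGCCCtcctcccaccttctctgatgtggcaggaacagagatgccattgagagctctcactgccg

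The Mal sequence holds 2 GC boxes, 83 and 59 bases before the start, and that of Ncmap holds 1, at 65 bases, against 30.5% of the 33469 promoters of the same length with at least 1. None of the 3 windows held ACAAAG, a core that SOX proteins bind, on either strand, which 16.3% of promoters did, nor its variant ACAATG (11.1% of promoters). Likewise none held TGACG, the core of the cyclic AMP response element (18.2%), TATAAA of the TATA box (12.9%) or CCAAT (34%). The window of Mal was rich in G and C (64.8%, more than 84.2% of promoters) and held 14 CpG dinucleotides, those of Pllp and Ncmap held 49.2% and 55.2% G and C with 8 and 3 CpG, and the median promoter held 51.2% with 5. The Ncmap window lies 18761 bases inside the outer end of the RefSeq gene, whereas those of Mal and Pllp start at it. RefSeq here is in another build than the measured TSSs (rn5), and the strand of Mal differs between them, minus in GRCr8 and plus in the rn5 table, whereas Pllp and Ncmap have the same strand in both. Therefore these letters could not be placed on the TSSs and say nothing of sites elsewhere in the genes.

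Libraries held 29895599 to 79940274 reads, of which the listed TSSs took 28.7% to 37%. These totals were inferred from the RPM step of a single read in each library, and read counts and floors rest on them. A value of 3 reads, used as the floor, was 0.0375 to 0.1 RPM. No molecular identifiers are named in the methods, so that intervals and floors cover counting error only. The Sox10 TSS was at 42.4 to 48.6 RPM in nerve, 117 to 149 RPM in primary cells, 77.5 to 90.7 RPM in parental S16 cells and 0 to 0.114 RPM in the ΔSOX10 clones. Of 12 Schwann cell markers, 8 were in the table, and their summed level was 14604 to 15885 RPM in nerve, 5161 to 5851 RPM in primary cells, 2825 to 2922 RPM in parental cells and 8.67 to 17.8 RPM in the clones, with Prx at 0 in all control and S16 libraries.

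In nerve a single TSS was dominant among those listed for Mal, Pllp and Ncmap, and Bcas1 had only 1 listed. The main TSS of a gene is the row with the highest mean in nerve. TSSs of these genes away from promoters marked by H3K4me3 and bound by SOX10 were not listed and could not be compared. Mal reached 3124.17 and 2906.94 RPM in the 2 nerves, and was the 8th and 9th most abundant of the 4993 TSSs. Ncmap was at 1399 and 1152 RPM, Pllp at 981 and 960 RPM and Bcas1 at 164 and 143 RPM. For each gene the 2 nerves thus lay close together, and the ranges of the 4 genes did not overlap. The values count 5′ ends and were not divided by transcript length. Because nerve is a mixed tissue, fewer cells of a type and less RNA per cell cannot be told apart in these bulk libraries.

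The plot of main TSS levels shows the 4 genes in every library on a log scale.

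**Figure D1:**
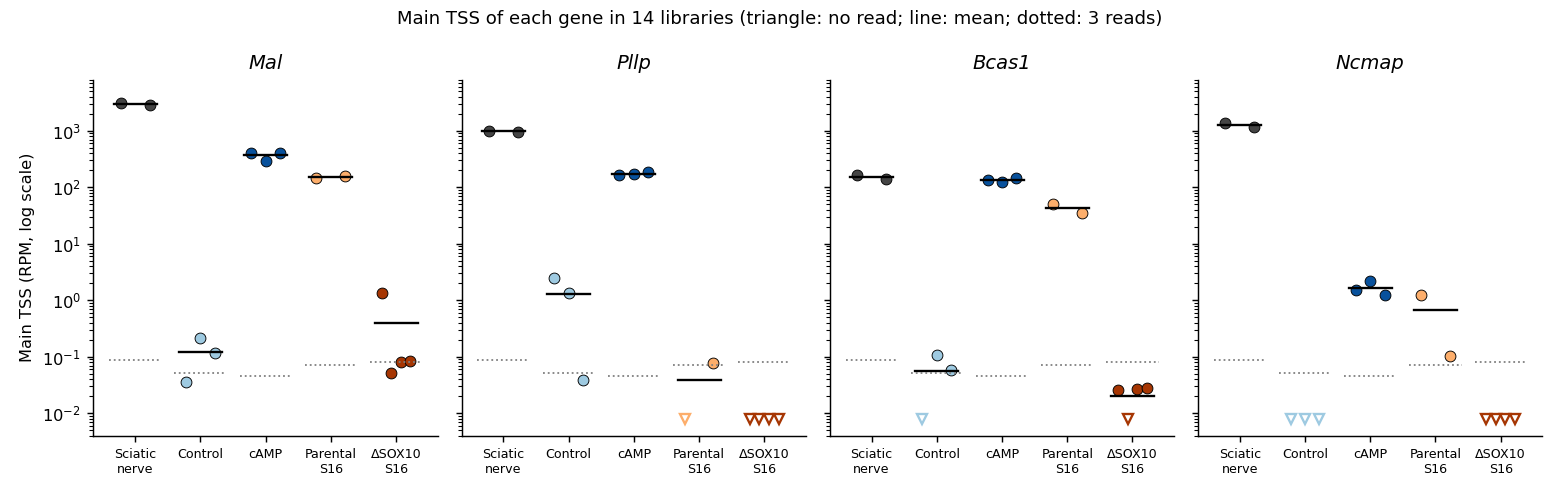
Main TSS of Mal, Pllp, Bcas1 and Ncmap in RPM (vertical axis, log scale) in the 14 libraries, grouped as sciatic nerve, control and cAMP-treated primary Schwann cells, parental S16 and ΔSOX10 S16 cells. Points are libraries, triangles at the bottom libraries without a read, solid lines group means and dotted lines 3 reads. Only Bcas1 has overlapping nerve and cAMP points, and Ncmap stays under 2.22 RPM outside nerve.

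Mal was near the floor in control cells and abundant with cAMP. Its main TSS (chromosome 3, 127099236 to 127099366, plus strand, rn5) gave 2, 14 and 6 reads in the control libraries, or 0.035, 0.214 and 0.117 RPM, against 406.4, 294.3 and 411.7 RPM with cAMP. All 3 treated libraries were thus far above all 3 controls. The means of 370.8 ± 66.3 and 0.122 ± 0.0896 RPM (SD, n = 3 each) differed 3042-fold. That fold was 2243 without control library 1 and 4890 without control library 2. On the scale of log2(RPM + 1), used for all fitted values here, the difference was 8.36 (standard error, SE, 0.287). Nerve, at 3016 ± 154 RPM (SD, n = 2), was 8.13-fold above the cAMP-treated cells. Parental S16 cells gave 148 and 159 RPM, below every cAMP-treated library, whose mean was 2.42-fold higher.

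Bcas1 was the one gene of the 4 whose level in cAMP-treated cells overlapped that in nerve. Its only listed TSS (chromosome 3, 174102982 to 174103167, minus strand) gave 133.5, 121.9 and 145.6 RPM with cAMP, against 0, 0.107 and 0.0583 RPM in control cells, which is 0, 7 and 3 reads. The mean with cAMP, 134 ± 11.9 RPM (SD, n = 3), was 87.1% of the nerve mean of 153 ± 15.3 RPM (SD, n = 2) and 2425-fold above control. That fold was 1617 without control library 1 and at least 2411 without control library 2, when the controls lay at or under the floor. The fitted difference between the primary cell groups was 6.99 (SE 0.357). Parental S16 cells were at 50.4 and 35 RPM, below every nerve and cAMP-treated library.

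Pllp was already detectable in control cells, but unevenly. Its main TSS (chromosome 19, 10725979 to 10726078, plus strand) gave 144, 87 and 2 reads in the 3 control libraries, or 2.52, 1.33 and 0.0389 RPM. With cAMP it was at 164.9, 170.3 and 185.4 RPM, a narrow range in which the lowest value was far above the highest control. The means of 173.5 ± 10.6 and 1.3 ± 1.24 RPM (SD, n = 3 each) differed 134-fold, with a fitted difference of 6.42 (SE 0.367). That fold was 90.1 without control library 3 and 254 without control library 1. Nerve, at 970.6 ± 14.8 RPM (SD, n = 2), was 5.59-fold above the cAMP-treated cells. In S16 cells Pllp was at or under the floor in all 6 libraries, with 3 reads in parental library 2 and none in the other 5, so that nerve was at least 13333-fold higher than parental cells.

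Ncmap was scarce in every culture. Its main TSS (chromosome 5, 157507226 to 157507343, minus strand) had no read in the 3 control libraries and 1.54, 2.21 and 1.25 RPM in the cAMP-treated ones, from 123, 124 and 85 reads. The cAMP-treated mean of 1.67 ± 0.495 RPM (SD, n = 3) was at least 31.9-fold higher than control, and the nerve mean of 1275.2 ± 175 RPM (SD, n = 2) was 766-fold higher than the cAMP-treated mean. The fitted difference between the primary cell groups was 1.40 (SE 0.595), a value that the pseudocount of 1 RPM holds down at such levels. Parental S16 cells gave 1.22 and 0.104 RPM from 54 and 4 reads. The higher of these lay just under the lowest cAMP-treated library, and their 95% Poisson intervals of counting, 0.917 to 1.59 and 0.996 to 1.54 RPM, overlapped.

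Ordered by level, all 4 genes were highest in nerve and then in cAMP-treated cells, with an overlap between these neighbours for Bcas1. Parental S16 cells came next for Mal, Bcas1 and Ncmap, without overlap with cAMP-treated cells. The control and ΔSOX10 groups overlapped for Mal (0.035 to 0.214 against 0.0508 to 1.35 RPM) and Bcas1 (0 to 0.107 against 0 to 0.0285 RPM) and were both at 0 for Ncmap. For Pllp the control cells came next, and the control range of 0.0389 to 2.52 RPM overlapped that of parental cells, 0 to 0.0778 RPM, with the clones at 0. Pllp and Ncmap averaged 970.6 and 1275.2 RPM in nerve, but 173.5 and 1.67 RPM with cAMP. A HiSeq instrument read the nerve and S16 libraries and a NovaSeq the primary cell libraries, so that instrument and model cannot be told apart between these groups, whereas each pair of treated and control groups shares its instrument.

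Of the 12 TSSs, 5 passed the filter of more than 1 RPM in at least 2 of the 6 primary cell libraries, the 4 main TSSs and 1 downstream TSS of Pllp, and all 5 were higher in every cAMP-treated than in every control library. All but the main TSS of Pllp passed through the cAMP-treated libraries alone, so that the filter itself fixed their direction. Among all 4119 TSSs tested 19.2% were higher with cAMP and 17.4% lower without overlap of the groups, and limma called 12.9% higher and 11.0% lower at an adjusted p under 0.05, with 3 of the 5 among the former, not Ncmap and the downstream Pllp TSS. The authors, who used edgeR, do list Ncmap among the genes with a TSS upregulated by cAMP. By size of the increase Mal ranked 1st, Bcas1 3rd, Pllp 5th and Ncmap 293rd of the 4119. These counts, calls and ranks use the values that the genes were chosen on, so that for these TSSs they describe and test nothing. Pllp had the widest spread within groups of the 4 main TSSs (SD 0.64 on the log2 scale).

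**Figure D2:**
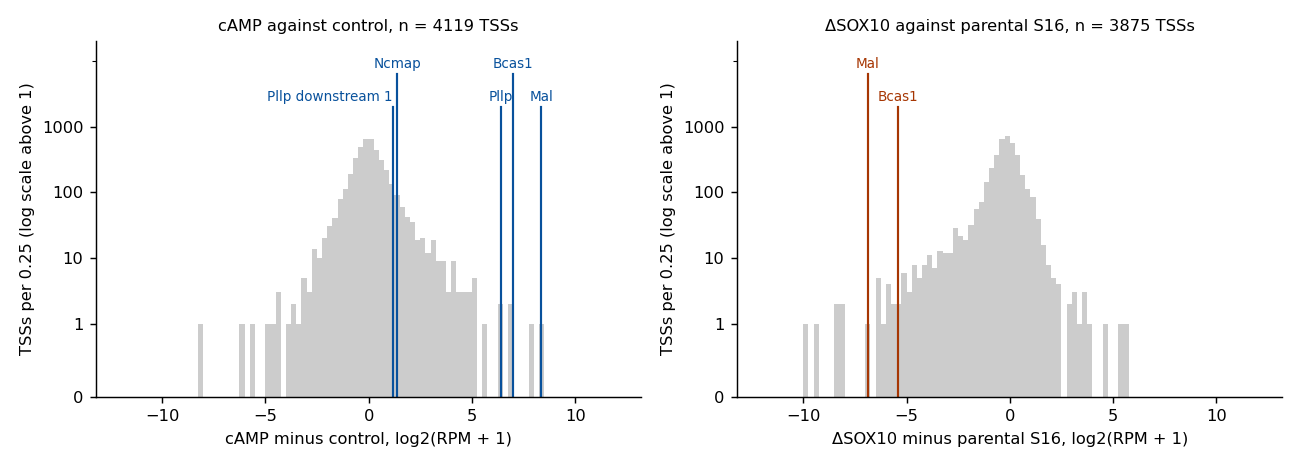
Distribution of the difference in log2(RPM + 1) over all TSSs tested, with cAMP against control at left (4119 TSSs) and ΔSOX10 against parental S16 cells at right (3875 TSSs). Bars count TSSs per 0.25 on a scale that is logarithmic above 1, and labelled lines mark the tested TSSs of the 4 genes. Mal, Bcas1 and Pllp lie in the right tail with cAMP, and Mal and Bcas1 in the left tail without SOX10.

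The comparison of ΔSOX10 with parental S16 cells asks whether a TSS depends on SOX10 in this line. Only Mal and Bcas1 were transcribed there above the filter, and both were called lower. Both passed it through the 2 parental libraries, Bcas1 through these alone, so that Bcas1 could enter the test only as lower in the clones. Mal was at 148 and 159 RPM in the parental libraries and at 1.35, 0.0508, 0.082 and 0.0855 RPM in clones 1-1, 1-2, 2-1 and 2-2, the last 3 from 2, 3 and 3 reads. Clone 1-1, with 53 reads, stood above the other 3, and all 4 were far below both parental libraries. The means of 153.5 ± 7.78 RPM (SD, n = 2) and 0.392 ± 0.639 RPM (SD, n = 4) differed 392-fold, and 303-fold without clone 1-2. Without clone 1-1 the other 3 were each at or under the floor and the parental cells at least 1889-fold higher. With all 4 the fitted difference was -6.89 (SE 0.453, limma adjusted p = 3.24e-05 over 3875 TSSs).

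Bcas1 fell from 50.4 and 35 RPM to a single read in each of clones 1-1, 2-1 and 2-2 and no read in clone 1-2. The parental mean of 42.7 ± 10.9 RPM (SD, n = 2) was at least 533-fold higher than that of the clones, taking 3 reads per library as the floor, and the fitted difference was -5.40 (SE 0.381, limma adjusted p = 4.71e-05). In the same test 6.55% of all TSSs were called lower and 1.65% higher, and every clone was below both parental libraries in 21.7% and above both in 7.69%. Mal had the 7th and Bcas1 the 21st largest decrease. The 2 genes were chosen with earlier results of these data known, which leaves these p-values short of independent evidence. The p-value of Bcas1 gives no support for the direction of its difference, since the filter fixed that direction. The median difference over all TSSs was -0.18, and -0.05 after rescaling with TMM, under which Mal was at -6.79 and Bcas1 at -5.30.

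Ncmap was not tested in S16 cells because it exceeded 1 RPM in 1 library alone. Its 54 and 4 parental reads stood against none in the 4 clones, so that the parental mean of 0.662 ± 0.79 RPM (SD, n = 2) was at least 8.27-fold higher. That bound rests on parental library 1, and was 1.3-fold without it and 15.3-fold without parental library 2. For Pllp, at or under the floor on both sides, no difference was detectable at this depth, and these libraries do not bear on its dependence on SOX10. Of 10 genes listed as fibroblast markers, Col1a1 and Pdgfra were in the table. Their sum was 2201 to 2771 RPM in parental cells and 2910 to 5171 RPM in the clones. The clones were grown from single sorted cells of the line, so that this sum is not a measure of fibroblast content. Its part in the results was not tested.

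The other 8 listed TSSs of these genes were minor. In nerve the main TSS took 99.7% to 99.9% of the listed RPM of Mal, 97.6% to 98.2% of Pllp and 95.9% to 97.1% of Ncmap. The largest minor TSS was that of Ncmap at 157505777 to 157505837, centred 1477.5 bp downstream of the main one, with 40 and 45.2 RPM in the 2 nerves. Outside nerve it had 83 reads (1.04 RPM) in cAMP-treated library 1 and none elsewhere. In that library the main TSS therefore held only 59.7% of the Ncmap RPM.

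Pllp had a TSS on either side that was also seen in culture. That at 10726158 to 10726163, 132 bp downstream of the main centre, gave 7.36 and 15.3 RPM in nerve, 1.94, 2.19 and 0.205 RPM with cAMP and no read in control cells, a fitted difference of 1.17 (SE 0.629). The TSS at 10725968 to 10725969, 60 bp upstream, gave 5.08 and 3.02 RPM in nerve and 121 reads (1.77 RPM) in cAMP-treated library 3 alone. Each was thus uneven among the treated libraries, in opposite ways, with library 3 lowest at the former and the only one with reads at the latter.

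Mal had a 28 bp TSS 163.5 bp upstream of its main centre (127099124 to 127099151) with 252 reads (8.43 RPM) in nerve 1 and none in nerve 2. Such a split, no read in one nerve and over 5 RPM in the other, was found at 153 of the 4993 TSSs (3.06%). The same TSS gave 12 reads in parental library 2 and none in the other 11 libraries. The remaining 4 minor TSSs, of which 2 belong to Pllp and 1 each to Mal and Ncmap, had 0.636 to 4.72 RPM in nerve and no read in any culture.

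**Figure D3:**
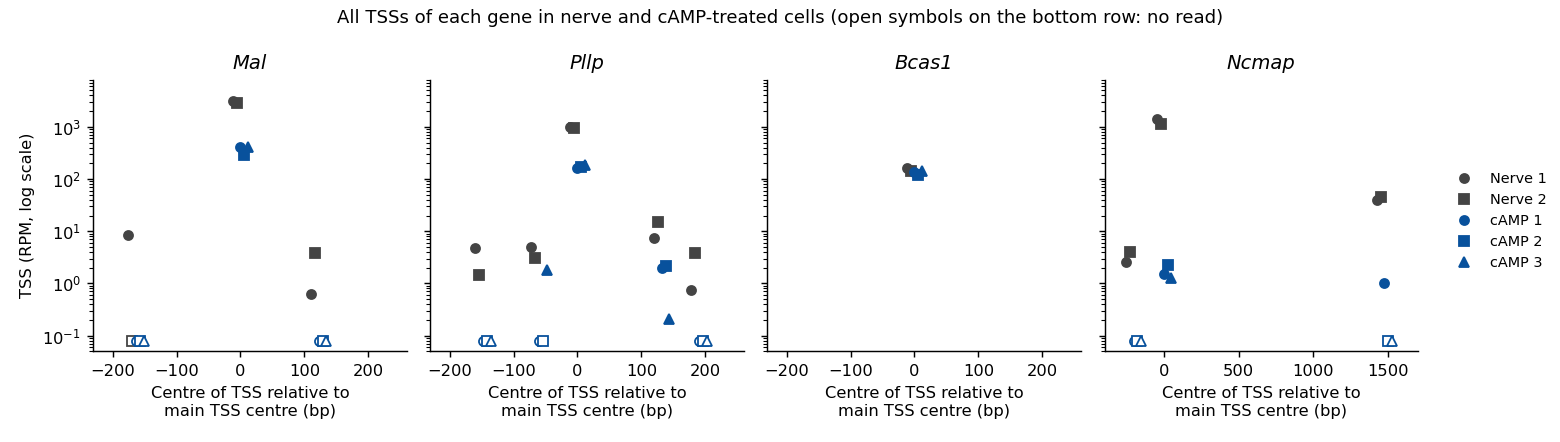
RPM (log scale) of all 12 TSSs of the 4 genes in the 2 nerve and 3 cAMP-treated libraries against the distance in bp of each TSS centre from that of the main TSS, downstream to the right. Symbols of a TSS are spread sideways so that all can be seen, and open symbols on the bottom row mark libraries without a read. The main TSS exceeds every other listed TSS of its gene in each library, and the second Ncmap TSS stands 1477.5 bp downstream.

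The main TSSs were broad clusters, 131 bp for Mal, 100 bp for Pllp, 186 bp for Bcas1 and 118 bp for Ncmap, against a median of 57 bp over all TSSs (range 2 to 201 bp). That of Bcas1 was wider than 97.8% of them, that of Mal than 86.1%, Ncmap 82.3% and Pllp 75.6%. All TSSs include minor ones, and widths were not compared with those of main TSSs alone. All 4 overlapped the SOX10 peak listed with them, as did 70% of main TSSs in the table, and 8 of the 12 TSSs did so against 51.7% of all. All 12 lay within their H3K4me3 peak (88.4% of all TSSs), and these peaks spanned 4843 bp at Mal, 3811 bp at Pllp, 3031 bp at Bcas1 and 3414 bp at Ncmap, with a median of 2156 bp. The downstream Ncmap TSS was 1363 bp from its SOX10 peak. No TSS of another gene shared an H3K4me3 peak with any of the 4 genes.

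Across the 14 libraries Mal and Bcas1 had the highest correlation of any pair among these genes, with Pearson r = 0.981 of log2(RPM + 1). Then came Mal with Pllp (0.83), Bcas1 with Pllp (0.809), Pllp with Ncmap (0.777), Mal with Ncmap (0.727) and Bcas1 with Ncmap (0.604). Here r compares the pattern over libraries and not the level. These coefficients describe 5 groups of libraries that share their source and instrument. Among 1636 genes with at least 10 RPM in nerve, those most like Mal were Bcas1, Kcnh8 (0.978), Cab39l (0.97), Caskin2 (0.947) and Chn2 (0.946). Those most like Bcas1 were Mal, Cab39l (0.975), Mag (0.97), Chn2 (0.966) and Plekha4 (0.965), of which Mag encodes the myelin-associated glycoprotein.

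The genes most like Pllp were Etv1 (0.979), Akr1c19 (0.973), Ano4 (0.968), Fxyd6 (0.967) and Chp2 (0.962), which averaged 7.75 to 44 RPM with cAMP and at most 1.99 RPM in parental cells. Those most like Ncmap were Magi2 (0.99), Slc36a2 (0.989), Tmod2 (0.986), Mmp23 (0.983) and Grb14 (0.976), with 13 to 46.7 RPM in nerve and at most 0.817 RPM in the mean of any other group. With the correlation taken over the 5 group means, 3 of the 5 genes were again among the closest 5 for Mal and for Pllp, and 2 of 5 for Bcas1 and for Ncmap.

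Other genes of myelin were counted by their main TSS in lists that do not hold the 4 genes. Among structural and membrane proteins of the myelin sheath, 12 of 24 were in the table and 11 tested, of which 8 were higher and 1 lower with cAMP (median difference 1.62), beside 13.5% higher and 13.9% lower of the 2832 main TSSs tested (median -0.03). Mag was at 30.6 ± 7.49 RPM with cAMP and 0.0051 ± 0.0088 RPM in control cells (difference 4.95, limma adjusted p = 4.65e-08), and Pmp22, the compact myelin protein, rose from 1.29 ± 1.12 to 19.5 ± 4.73 RPM (3.3, adjusted p = 3.9e-05). Cd9, a tetraspanin, rose from 64.4 ± 5.27 to 540 ± 22.5 RPM (adjusted p = 2.56e-15), and myelin basic protein (Mbp) from 215 ± 23 to 1336 ± 156 RPM (adjusted p = 2.18e-15, limma, SD, n = 3 each). Of the 11, 6 fell and none rose without SOX10 (median -2.42 against -0.17 over 2763 main TSSs, of which 5.50% were lower and 1.99% higher), among them Pmp22 from 524 ± 13.9 to 0.743 ± 0.991 RPM (limma adjusted p = 1.54e-05), Mbp and Mag (SD, n = 2 and 4). Mag, near 0 in control cells and clones, passed each filter through the other group alone, so that only the direction seen could be called.

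Of 29 further MARVEL and tetraspan genes, a list that leaves out Cd9 and Pmp22, which have 4 membrane spans too but were counted with the myelin sheath and were higher, 7 were in the table and tested. Of these, 6 were lower and none higher in cAMP-treated cells (median -0.75). The named ones were the MARVEL proteins Cmtm3, from 79.9 ± 1.17 to 34.5 ± 5.59 RPM (limma adjusted p = 3.67e-05), Sypl1, from 125 ± 6.33 to 62.4 ± 5.79 RPM (adjusted p = 1.81e-05), and Syngr2, from 105 ± 7.3 to 62.7 ± 10.8 RPM (adjusted p = 0.00148), and the tetraspanin Cd81, from 2463 ± 93.8 to 1437 ± 72.9 RPM (adjusted p = 5.56e-10, SD, n = 3 each). Without SOX10, 2 of the 7 fell (median -0.11). Cd81 went from 995 ± 63.6 to 0.547 ± 0.217 RPM (limma adjusted p = 1.06e-06) and Cmtm5, another MARVEL protein, from 90.2 ± 4.91 to 0.026 ± 0.036 RPM (adjusted p = 1.54e-05, SD, n = 2 and 4). With either parental library left out neither was called, since neither then passed the filter. Both had thus passed it through the parental libraries alone and could be called only as lower.

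Of 40 genes of myelin lipid synthesis 18 were tested, of which 13 were higher and none lower with cAMP (median 1), among them the cholesterol pathway enzymes Hmgcs1 (54.8 ± 7.3 to 219 ± 32.5 RPM, limma adjusted p = 9.31e-10), Cyp51 (60.7 ± 10.9 to 219 ± 31.1 RPM), Idi1 (101 ± 13.4 to 280 ± 33.8 RPM) and Tm7sf2 (28.2 ± 3.54 to 79.7 ± 15 RPM, SD, n = 3 each). In S16 cells 1 of the 18 was lower without SOX10, Pmvk of the mevalonate pathway (79.8 ± 8.13 to 38.7 ± 7.6 RPM, limma adjusted p = 0.03), with a median of -0.95. This count was the least stable, at 0 to 9 over the alternatives. Leaving out either parental library or clone 1-2 brought it to 0, clone 1-1 to 3 and clone 2-2 to 6.

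Among regulators of myelination 12 of 33 genes were tested with cAMP, and 5 were higher and 2 lower (median 0.87). Egr2, the zinc finger factor that drives myelin genes, was at 34 ± 1.33 RPM with cAMP and 0.0109 ± 0.0095 RPM in control cells (difference 5.11, limma adjusted p = 1.65e-08). Egr2 passed the filter through the cAMP-treated libraries alone, so that it could be called only as higher. The laminin chain Lamb1 (4.13 ± 2.98 to 31.8 ± 3.37 RPM), the ligand Dhh (12 ± 1.35 to 91.2 ± 5.1 RPM) and the lysophosphatidic acid receptor Lpar1 (21.9 ± 3.64 to 151 ± 29.8 RPM) also rose (SD, n = 3 each). Without SOX10, 7 of 11 fell and none rose (median -2.71), among them the edited gene Sox10 itself, Dhh, the neuregulin receptor Erbb3 (22.8 ± 1.76 to 0.0064 ± 0.0127 RPM, limma adjusted p = 7.85e-05) and the secreted protein Lgi4 (14.9 ± 0.902 to 0.0064 ± 0.0127 RPM, SD, n = 2 and 4). With either parental library left out fewer were called, and Sox10, Erbb3 and Lgi4, near 0 in the clones, then failed the filter. Sox10, Erbb3 and Lgi4 had thus passed it through the parental libraries alone and could be called only as lower. The filter therefore fixed the direction of part of this count.

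Genes of immature and repair Schwann cells moved in both directions with cAMP, 4 of 9 higher and 2 lower of 30 listed (median 0.38). Jun, a factor of repair cells, fell from 541 ± 65.5 to 60.8 ± 6.21 RPM (limma adjusted p = 7.13e-15) and the neurotrophin receptor Ngfr from 2622 ± 63 to 794 ± 71.6 RPM (adjusted p = 4.29e-15), whereas the helix-loop-helix inhibitors Id2 (62.1 ± 5.45 to 571 ± 43.5 RPM) and Id4 (139 ± 8.19 to 337 ± 22.8 RPM) rose (SD, n = 3 each). In the clones Ngfr fell from 786 ± 8.49 to 1.51 ± 0.883 RPM (limma adjusted p = 7.73e-06) and Id2 rose from 24.2 ± 3.04 to 65.7 ± 19.8 RPM (adjusted p = 0.0308, SD, n = 2 and 4), with a median of -0.54 over the 9.

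**Figure D4:**
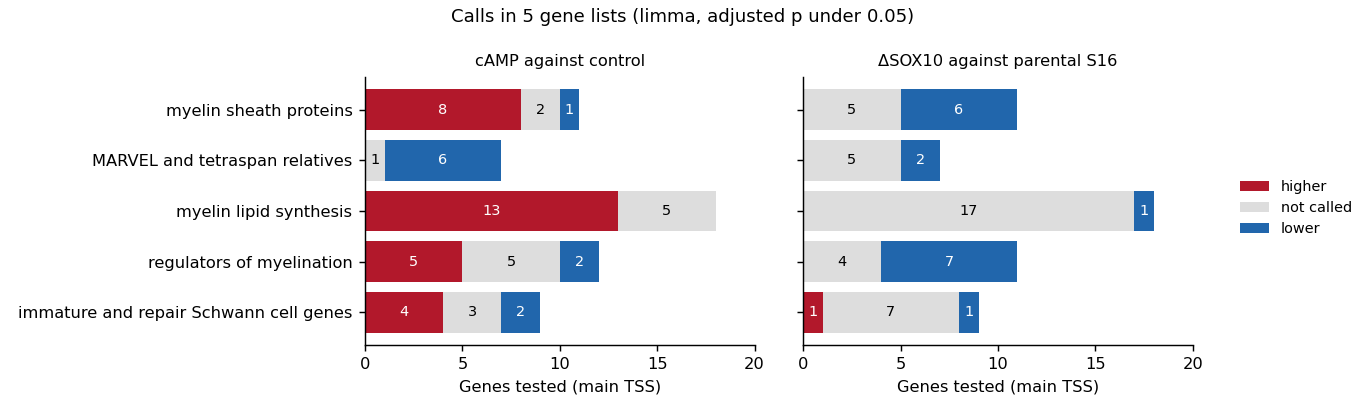
Number of genes tested in each of 5 lists (horizontal axis, main TSS) that were higher, lower or not called by limma at an adjusted p under 0.05, with cAMP against control at left and ΔSOX10 against parental S16 at right. With cAMP 8 of 11 myelin sheath genes and 13 of 18 lipid genes were higher, and 6 of 7 in the list of further MARVEL and tetraspan relatives lower.

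Markers of other cells differed between the groups compared. The summed level of Col1a1 and Pdgfra was 98.7 to 114 RPM in nerve, 790 to 892 RPM in control and 366 to 459 RPM in cAMP-treated cells, with Pdgfra at 0 in all controls. Csf1r, the only listed marker of macrophages out of 10, was at 1.07 to 4.82 RPM in nerve and 0 in primary and parental cells. Itgb4 and Cfd, 2 of 10 adipocyte and perineurial markers, summed to 85.5 to 123 RPM in nerve and at most 5.09 RPM in any culture, and none of 10 endothelial and pericyte markers was in the table. Their part in the results was not tested.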

How the data were processed

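The authors made Tn5Prime libraries and, per the labels and methods, trimmed the reads (Cutadapt 1.14), mapped them to rn5 (STAR 2.5.2a, SAMtools 1.9), clustered the read starts and counted them (Subread 1.6.1). The deposited values are RPM of the whole library for TSSs near H3K4me3 peaks that overlap SOX10 peaks. Log2 fold changes and FDR values of the authors' edgeR 3.24.3 comparisons are also deposited and were not used. Values are whole multiples of 1 read, within 0.05 reads, for 92.2% to 100% of values per library. The deposited RPM of 4 S16 libraries are partly rounded to 3 digits, which makes those reads approximate.

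TSSs above 1 RPM in 2 or more of a comparison's 6 libraries were tested on log2(RPM + 1) with limma 3.58.1 (lmFit, eBayes with trend, two-sided) in R 4.3.3, without covariates, and adjusted by Benjamini-Hochberg over all of them. The test was tried on simulated data. Alternatives were count tests on recovered reads (edgeR 4.0.16, DESeq2 1.42.0), other scalings, filters and pseudocounts, libraries left out, summed TSSs, all 14 libraries together and a replicate block. Folds of the 4 genes with each library left out were added after seeing the data. Genes beyond the 4 were named, up to 4 per list and comparison, by the largest change among called main TSSs that reached 10 RPM in either group's mean, and 5 per gene by correlation, except 1 gene that is not reported here. The 4 genes and all lists were chosen with earlier results of these data known. Values were computed with Python 3.11.15, and sequences are from RefSeq (GRCr8).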

Additional observations from a re-analysis of the deposited data

Results flagged for a closer look

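Among the 4 ΔSOX10 clones, Mal in clone 1-1 lay far from the rest at 1.35 RPM (53 reads), against 0.0855 RPM in the nearest clone, a gap of 0.973 of the range, past the 95% critical value of Dixon's test. Without that clone the fitted difference from parental cells was -7.17. Bcas1 in clone 1-2 was set apart as the lowest at 0 RPM against 0.0255 RPM in the nearest, a gap of 0.895 of the range that amounts to no read against 1. Chance marks about 1 in 20 groups in this way.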

How the results depend on the processing

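Of 327 alternative values of 21 results, 287 kept to the main value. For counts this meant within 1.5 times, and for differences with cAMP within the SD between replicates (no test). For differences in S16 cells it meant the same side of an adjusted p of 0.05. Counts could not reverse by this rule. Fitted differences with cAMP could not change with another filter, all 14 libraries together or a replicate block. Nor could those of Ncmap and the downstream Pllp TSS change without a control library, since these had no read there. The tally of values kept includes such cases, and is no measure of stability for them. No fitted difference of the 4 genes reversed, but the main filter had fixed the direction of most of them. The fall of Mal and Bcas1 without SOX10 stayed called in every alternative that could be fitted, with adjusted p up to 0.0014 for Mal and 0.000393 for Bcas1 and values of -9.03 to -4.88 and -10.91 to -3.23. Bcas1 could not be fitted with 1 parental library, since it then fails the filter, which fixed its direction in the main fit. Differences with cAMP moved with the pseudocount and the count model. For Mal, Bcas1, Pllp, its downstream TSS and Ncmap they were 10.77, 9.81, 7.75, 3.49 and 4.11 with a pseudocount of 0.1, 6.18, 4.77, 4.84, 0.35 and 0.41 with 5, and 11.53, 11.18, 7.06, 8.83 and 9.03 with DESeq2. With edgeR, Mal was 11.51, Bcas1 11.15, the downstream Pllp TSS 9.52 and Ncmap 9.72. Leaving out 1 library gave 8.28 to 8.52 for Mal, 6.93 to 7.06 for Bcas1, 5.93 to 6.81 for Pllp, 1.17 to 1.62 for its downstream TSS and 1.26 to 1.51 for Ncmap. The downstream Pllp TSS could not be fitted without cAMP-treated library 1 or 2, since it then failed the filter. It stayed at 1.17 without any control library. TSSs called lower with cAMP, 452, were 288 with all 14 libraries. In S16 cells 254 lower and 64 higher became 166 lower with a mean of at least 5 RPM, 235 lower and 164 higher with DESeq2, 71 and 36 without parental library 1, 74 and 28 without parental library 2, and 71 to 265 lower and 28 to 55 higher with any library left out. With 1 parental library, a TSS at or under 1 RPM in every clone also fails the filter. How far this accounts for the smaller counts was not tested. With a replicate block the cAMP comparison gave 553 higher and 467 lower TSSs (530 and 452 without it), 6 regulators of myelination higher in place of 5, and 8.36 for Mal. Control and cAMP libraries of the same number had r = 0.0294, 0.00751 and 0.0379 between their deviations, against -0.051 to 0.0213 for other numbers. Such small values do not settle whether the numbers pair the libraries. Floors of 0.0375 to 0.1 RPM limit what can be seen of Pllp and Ncmap in S16 and control cells.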
